A study of Mus musculus with 6 samples.

Results

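Plasma proteins and enzymes that the liver is known for making were examined in RNA from whole adrenal glands. The members were 35 genes chosen by name: apolipoproteins, plasma carriers, protease inhibitors, clotting proteins and enzymes of amino acid and urea metabolism. A member was read from every probe set that the platform's annotation assigns to exactly 1 gene, which gave 41 probe sets for 31 of the 35 genes, out of 44935 probe sets for 18163 genes in all. Gc, Trf, Mup1 and Serpina1a had no such probe set and were not analysed here.

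The glands came from male mice, 3 months old, of a mixed C57BL6 and 129Sv background that carried the Per2Brdm1 mutation and lacked Cry1. Both time points share these alleles, which the labels describe as leaving no working circadian clock, and no wild-type mice were analysed here. The mice had been held in a light-dark cycle and then moved to constant darkness. Collection was 54 h after lights off for 3 arrays and 46 h after it for the other 3. The arrays are called replicates 1, B and C after the letters in their titles, the array without a letter being 1. The labels do not tie an array to an animal or say whether glands were pooled, so the spread behind each p-value is that of these 6 arrays and could be technical. In whole glands, fewer cells of a type and less RNA per cell cannot be told apart.

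Hepatocytes secrete most plasma proteins: albumin and other carriers, the apolipoproteins of lipoprotein particles, fibrinogen and clotting factors, and inhibitors of circulating proteases. Their genes are switched on in the liver by a shared set of factors, among them HNF1, HNF4, FOXA and C/EBP proteins, and many are used little outside the liver. Some are also made elsewhere, such as Rbp4 and Hp in fat tissue, Apoc1 in macrophages and Ttr in the choroid plexus.

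The promoters of 5 members are shown because these genes had some of the largest differences between the time points, as described further on. Each is the 250 bases before the start site in RefSeq's table for GRCm38.p6, written 5′ to 3′ on the gene's strand. Alb lies at chr5:90460620-90460869 on the plus strand, Apoa1 at chr9:46228380-46228629 on the plus strand, Serpina1b at chr12:103738190-103738439 on the minus strand, Fga at chr3:83025903-83026152 on the plus strand and Fgb at chr3:83049864-83050113 on the minus strand. Capitals mark matches to 3 motifs searched on both strands. GTTAATNAT is a core of the HNF1 site and TTGCNNAA a core of the C/EBP site. TTATGTAA is a form of the D-box, bound by the clock output factor DBP.
Alb: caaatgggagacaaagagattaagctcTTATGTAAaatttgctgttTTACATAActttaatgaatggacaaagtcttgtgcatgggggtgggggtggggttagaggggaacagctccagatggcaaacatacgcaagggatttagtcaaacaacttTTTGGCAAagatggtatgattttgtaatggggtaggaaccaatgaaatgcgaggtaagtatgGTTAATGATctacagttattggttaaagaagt
Apoa1: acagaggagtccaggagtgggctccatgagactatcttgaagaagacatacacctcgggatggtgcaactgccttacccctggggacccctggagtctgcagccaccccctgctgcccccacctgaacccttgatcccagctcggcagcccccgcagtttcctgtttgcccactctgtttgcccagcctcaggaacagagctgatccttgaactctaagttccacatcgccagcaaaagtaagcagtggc
Serpina1b: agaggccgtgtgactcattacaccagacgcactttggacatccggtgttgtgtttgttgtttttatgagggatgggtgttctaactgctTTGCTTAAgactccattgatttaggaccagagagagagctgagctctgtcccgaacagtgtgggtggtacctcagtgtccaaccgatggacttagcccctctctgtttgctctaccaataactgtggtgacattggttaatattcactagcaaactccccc
Fga: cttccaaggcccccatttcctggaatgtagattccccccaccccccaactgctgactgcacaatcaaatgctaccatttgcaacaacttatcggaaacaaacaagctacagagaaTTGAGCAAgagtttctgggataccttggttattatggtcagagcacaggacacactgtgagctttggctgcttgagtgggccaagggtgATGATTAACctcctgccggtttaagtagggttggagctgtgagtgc
Fgb: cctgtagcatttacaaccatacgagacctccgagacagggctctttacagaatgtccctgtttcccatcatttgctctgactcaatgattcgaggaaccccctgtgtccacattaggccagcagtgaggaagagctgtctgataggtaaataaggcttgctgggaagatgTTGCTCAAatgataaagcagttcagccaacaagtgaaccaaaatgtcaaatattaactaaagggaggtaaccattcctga

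The Alb window held GTTAATGAT from 32 to 24 bases before the start, TTTGGCAA (the C/EBP motif on the other strand) from 94 to 87, and the D-box once on each strand, as TTATGTAA from 223 to 216 and TTACATAA from 204 to 197. Fga held ATGATTAAC, the HNF1 motif on the other strand, from 46 to 38 bases before the start and TTGAGCAA from 135 to 128. Fgb and Serpina1b each held 1 C/EBP match, TTGCTCAA from 80 to 73 and TTGCTTAA from 161 to 154, and the Apoa1 window held none of the 3 motifs. No match overlapped another motif. Promoters were listed for 25 members, with 27 start sites. The HNF1 motif was in 3 of these 27 windows and in 0.737% of all 32851 windows of the same length, the C/EBP motif in 9 and in 9.56%, and the D-box in 1 and in 0.819%. A match is a description of letters and not a bound site.

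Over the 6 arrays the hepatocyte genes read from 5236 units (Alb on 54h replicate B) down to 7.06 units (Itih3 on 46h replicate B). The deposited table has no detection call, so 83 probe sets for olfactory, vomeronasal and bitter taste receptor genes served as a measured background: their means over the 6 arrays had a median of 76.4 units and a 95th percentile of 399 units. Reading each gene from its brightest probe set, 8 of 31 members lay above that percentile: Alb, Hp, Rbp4, Ttr, Apoc1, Serpina1b, Apoa2 and Bhmt. The other 23 lay at or below it. The brightness of a probe set does not rank transcripts of different genes. Values of such dim probe sets mix signal and background, and their differences are understated on the log2(intensity + 16) scale used throughout.

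**Figure D1:**
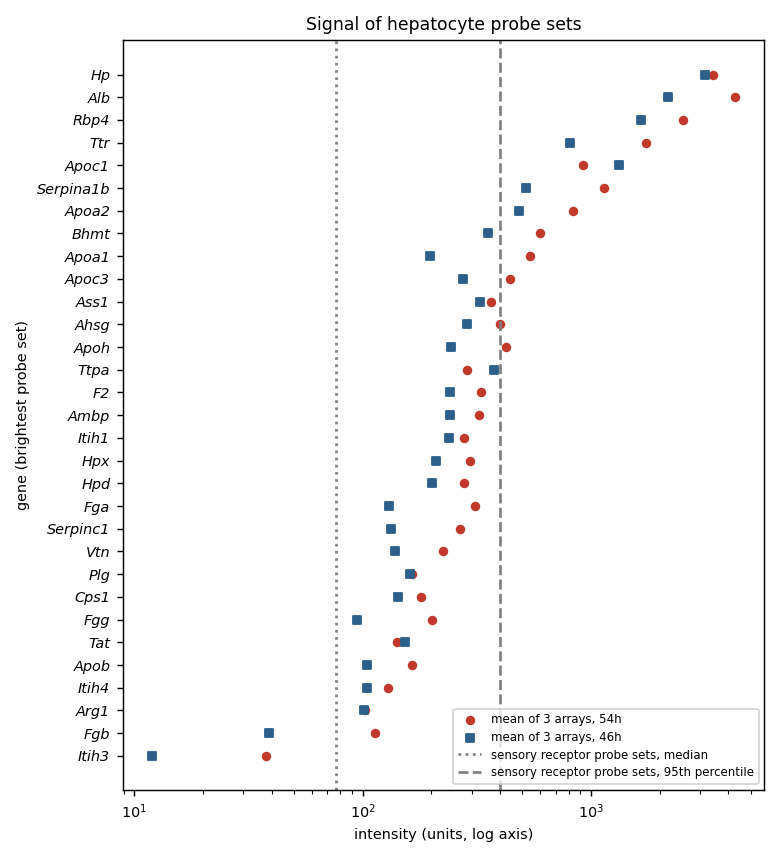
Mean intensity of the brightest probe set of each of 31 hepatocyte genes at 54 h (circles) and 46 h (squares), in units on a log axis, with the median (76.4 units) and the 95th percentile (399 units) of 83 sensory receptor probe sets as vertical lines. Alb and Hp lie far to the right of both lines, and Itih3 lies left of both at both times.

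The filter on low values was the 40th percentile of the mean log2 value over all probe sets, which corresponds to 139 units. It left out the brightest probe set of 6 members: Apob, Itih3, Itih4, Fgb, Fgg and Arg1. These were described but not tested, and the other 25 members were tested. Because a member that was bright only at 54 h could pass this filter through that group, counts below are over all 31 measured members unless the limma test is named. Fga, Serpinc1 and Vtn had 46 h means of 131, 133 and 138.6 units, under that level. They were tested only because of their 54 h values, so their limma results are descriptions.

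Most hepatocyte genes read higher at 54 h. The median log2 change, 54 h minus 46 h, was 0.56 over the 31 members (quartiles 0.24 and 0.92) and -0.02 over all 18163 genes (quartiles -0.12 and 0.09). All 3 arrays of 54 h lay above all 3 of 46 h for 20 of 31 members and below them for 2, where the same held for 6.43% and 8.96% of all genes. In limma, 3 member probe sets of 2 genes, Serpina1b and Ttr, rose at an adjusted p of 0.05, and none fell. Of all 26961 probe sets tested, 0.115% passed in either direction, 0.0593% upwards and 0.0556% downwards. At an unadjusted p under 0.05, 16 of the 25 tested members read higher and 2 lower, where 4.13% and 6.2% of all tested genes did. These 16 include Fga, Serpinc1 and Vtn, which passed the filter only through their 54 h arrays. Counted over all 41 probe sets, 27 lay above without overlap and 3 below, against 6.52% and 7.72% of all probe sets. The count of 3 was 0 without 54h replicate C, 0 without 46h replicate 1, 0 without 46h replicate B and 5 without 54h replicate 1, and it was 0 when the variance was fitted without an intensity trend. The members were chosen with earlier results of these arrays known, so the counts and the median describe the list and no test of the list was made.

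**Figure D2:**
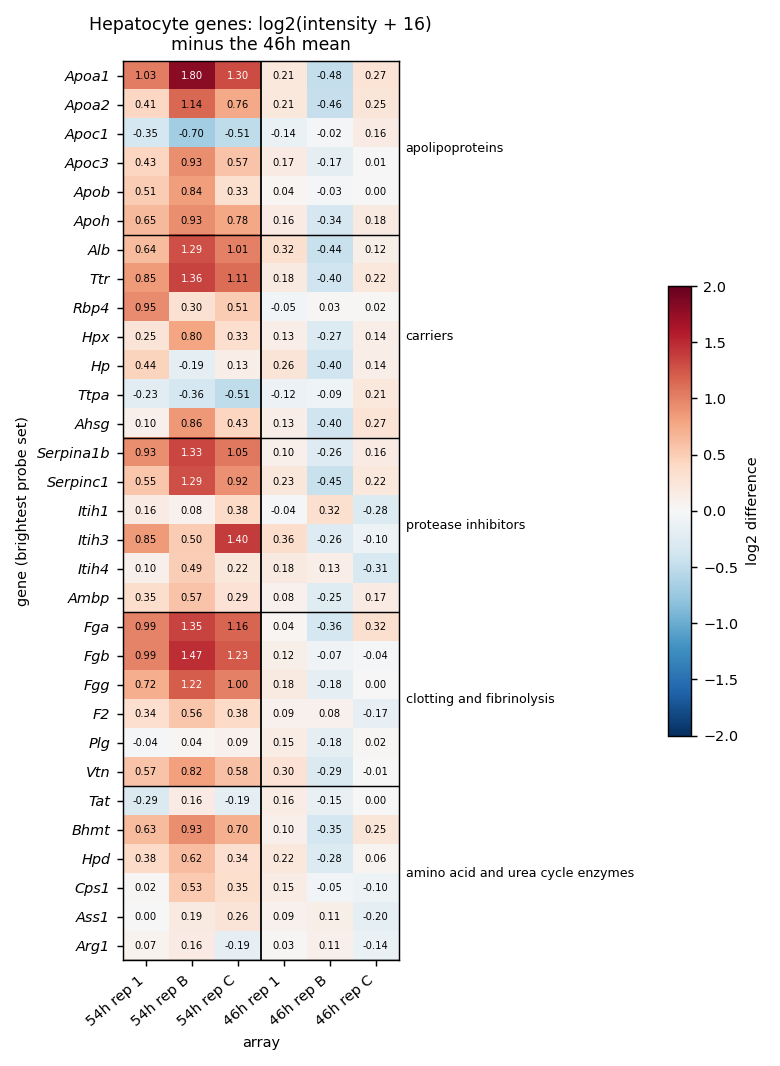
Each cell is log2(intensity + 16) on 1 array minus the mean of the 46 h arrays, for the brightest probe set of each of 31 hepatocyte genes grouped by role, with 54 h arrays on the left and 46 h arrays on the right. Apoa1 reads 1.80 on 54h replicate B, and Apoc1 and Ttpa are below the 46 h mean on all 3 arrays of 54 h.

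Among apolipoproteins, 5 of 6 read higher on every 54 h array than on any 46 h array and 1, Apoc1, read lower on every one. The median log2 change was 0.71 and none passed limma over all probe sets. Apoa1, the main protein of high-density lipoprotein, had 409, 709 and 498 units at 54 h (replicates 1, B and C in this order, as for all later genes), against 225, 133 and 235 units at 46 h. Replicate B was the highest array at 54 h and the lowest at 46 h, and the times did not overlap. The mean was 539 ± 154 units at 54 h and 198 ± 56.1 units at 46 h (SD, n = 3 each). The log2 change was 1.38 ± 0.24 SE (95% interval 0.84 to 1.91, limma adjusted p = 0.0850). Apoa2, another protein of high-density lipoprotein, had 633, 1064 and 813 units at 54 h, against 550, 340 and 565 units at 46 h (log2 change 0.77 ± 0.22 SE, limma adjusted p = 0.289). Its replicates stood in the same order as those of Apoa1.

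Apoc3, which inhibits lipoprotein lipase, had 376, 537 and 417 units at 54 h, against 310, 242 and 276 units at 46 h, with a log2 difference of 0.64 ± 0.15 SE (limma adjusted p = 0.197). Apoa1 and Apoc3 are neighbours in the RefSeq gene order, with no protein-coding gene between them. Apoh, also called beta-2-glycoprotein I, had 386, 472 and 421 units at 54 h, against 270, 186 and 273 units at 46 h (log2 change 0.79 ± 0.16 SE, limma adjusted p = 0.125). Apob, the structural protein of very low and low density lipoproteins, was dim in both of its probe sets. Its brighter one had 156, 201 and 136 units at 54 h, against 108, 102 and 105 units at 46 h, and was not tested.

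Apoc1 encodes a small apolipoprotein and went the other way. It had 1040, 813 and 928 units at 54 h, against 1204, 1311 and 1484 units at 46 h. Every 54 h array lay below every 46 h array, and replicate B was the lowest at 54 h. The log2 change was -0.52 ± 0.12 SE (95% interval -0.78 to -0.26, limma adjusted p = 0.167). Beside it, macrophage and immune markers, all 12 of them measured, had a median log2 change of -0.15, with all 3 arrays of 54 h below all of 46 h for 5 and above for 1. Their summed level was 33335 to 34156 units at 54 h and 36647 to 38057 units at 46 h, and their part in the Apoc1 values was not tested.

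Of the carriers, 7 of 10 were measured. Alb, Ttr, Rbp4 and Hpx read higher on every 54 h array, Ttpa read lower on every one, and Hp and Ahsg overlapped between times. Alb, the most abundant plasma protein, had 3319, 5236 and 4303 units at 54 h, against 2656, 1565 and 2311 units at 46 h. The highest array was 54h replicate B and the lowest 46h replicate B, as for Apoa1. The fold change was 1.97 (log2 change 0.98 ± 0.20 SE, 95% interval 0.53 to 1.43), which did not pass (limma adjusted p = 0.127). The mean of this probe set lay at the 94.7th percentile of all probe sets.

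Ttr carries thyroxine and the retinol-binding protein in plasma. Its brightest probe set had 1440, 2052 and 1731 units at 54 h, against 901, 597 and 922 units at 46 h, a 2.15-fold difference (log2 change 1.11 ± 0.18 SE; limma adjusted p = 0.0640). A dimmer Ttr probe set, with 967, 1380 and 1114 units at 54 h against 546, 342 and 511 units at 46 h, rose by 1.29 ± 0.19 SE on the log2 scale and passed (limma adjusted p = 0.0495). With that call at the threshold, it passed in 1 of the 6 fits that left out an array.

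Rbp4, the plasma carrier of retinol, was higher at 54 h but in another order of arrays. It had 3194, 2037 and 2348 units at 54 h, against 1595, 1681 and 1674 units at 46 h. The highest array was 54h replicate 1, and the 46 h arrays lay close together, with an SD of 48.0 units against 598 units at 54 h. The log2 change was 0.58 ± 0.14 SE (limma adjusted p = 0.204). Hp, haptoglobin, which binds free haemoglobin, had 4212, 2712 and 3396 units at 54 h, against 3725, 2354 and 3413 units at 46 h. Replicate B was the lowest array at both times, the times overlapped, and the log2 change was 0.12 ± 0.19 SE (95% interval -0.29 to 0.54, limma adjusted p = 0.871), with either sign when 1 array was omitted (-0.07 to 0.28). For both genes 54h replicate 1 was the highest array and 54h replicate B the lowest of 54 h. Among 9 adipocyte markers measured, the list mean on 54h replicates 1, B and C lay 0.43, 0.00 and 0.19 above the mean of all 46 h arrays on the log2 scale. This was the same order at 54 h. On 46h replicates 1, B and C the list mean lay at 0.08, -0.18 and 0.10. Replicate B was thus the lowest of 46 h, as for Hp, whereas Rbp4 was lowest on 46h replicate 1. The summed adipocyte level was 30207 to 38651 units at 54 h and 28795 to 35307 units at 46 h, and its part in the Rbp4 and Hp values was not tested.

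Hpx, hemopexin, which binds haem, had 250, 371 and 265 units at 54 h, against 228, 169 and 229 units at 46 h. Ahsg, fetuin-A, had 301, 521 and 382 units at 54 h, against 309, 208 and 340 units at 46 h. In both, replicate B was the highest array of 54 h and the lowest of 46 h, and for Ahsg the times overlapped. Their log2 changes were both 0.46, with a limma adjusted p of 0.430 for Hpx and 0.524 for Ahsg. Without 54h replicate B they were 0.29 for Hpx and 0.26 for Ahsg, and without 46h replicate B that of Ahsg was 0.26. Ttpa, the transfer protein for alpha-tocopherol, had 317, 288 and 257 units at 54 h, against 342, 351 and 434 units at 46 h (log2 change -0.37 ± 0.13 SE, limma adjusted p = 0.401).

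Protease inhibitors held the member with the smallest p. Serpina1b, a mouse gene of the alpha-1-antitrypsin family, had 995, 1324 and 1090 units at 54 h, against 554, 430 and 578 units at 46 h. The lowest 54 h array, replicate 1, lay far above the highest 46 h array, replicate C. It rose 2.15-fold (log2 change 1.10 ± 0.14 SE, 95% interval 0.78 to 1.43, limma adjusted p = 0.0343). The other Serpina1b probe set rose by 1.21 ± 0.16 SE on the log2 scale, also with a limma adjusted p of 0.0343. Each of these 2 passed in 3 of the 6 fits with an array omitted. For the brighter one the limma adjusted p was 0.198 with 54h replicate C omitted, 0.146 with 46h replicate 1 omitted and 0.0700 with 46h replicate B omitted. The mouse family has several near-identical genes, of which Serpina1d lies between Serpina1b and Serpina1a, and which of them these probe sets read is uncertain.

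Serpinc1, antithrombin, had 198, 341 and 261 units at 54 h, against 156, 91.0 and 153 units at 46 h, with a log2 difference of 0.92 ± 0.23 SE (limma adjusted p = 0.217). Ambp, the precursor of bikunin and alpha-1-microglobulin, had 309, 363 and 295 units at 54 h, against 254, 198 and 270 units at 46 h, with a log2 difference of 0.40 ± 0.14 SE (limma adjusted p = 0.390). The times did not overlap for either gene. Itih1, Itih3 and Itih4, adjacent genes of the ITIH heavy-chain family, were dim or mixed. Itih1 had 266, 251 and 313 units at 54 h, against 228, 299 and 192 units at 46 h, Itih4 overlapped between times at 80.5 to 152 units over the 6 arrays, and Itih3 read 23.0 to 56.5 units at 54 h against 7.06 to 19.2 units at 46 h, under the receptor median on every array.

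**Figure D3:**
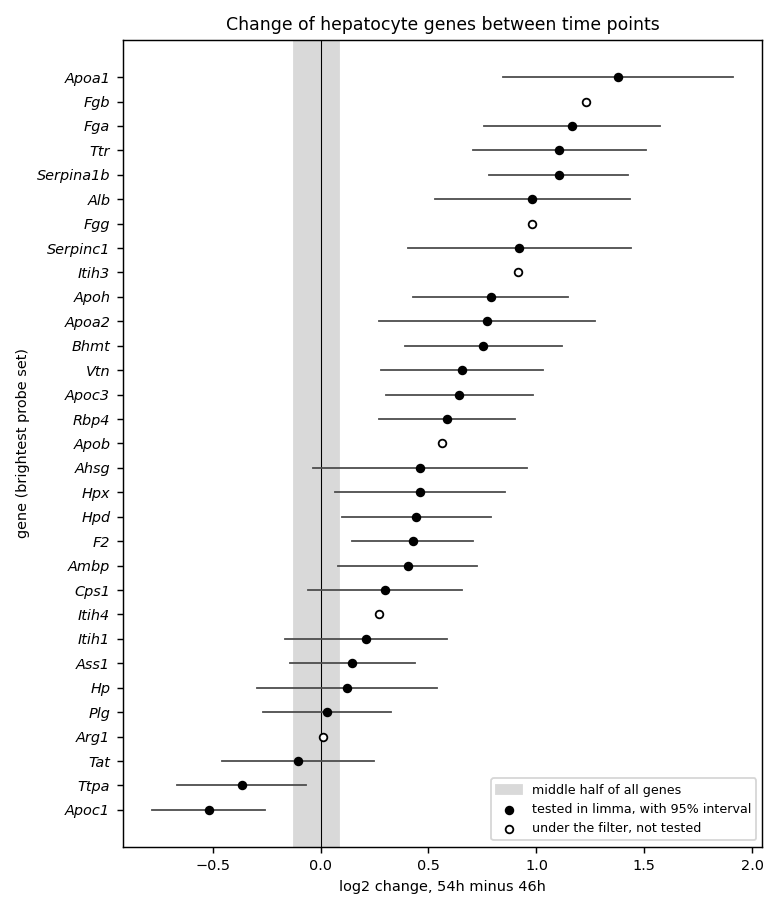
Log2 change, 54 h minus 46 h, of the brightest probe set of each of 31 hepatocyte genes in order of size, with 95% limma intervals for the 25 tested genes, hollow points for the 6 under the filter, and a grey band for the range between the quartiles of all genes (-0.12 to 0.09). Apoa1 has the largest change at 1.38 and Apoc1 the lowest at -0.52.

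Of the 6 clotting and fibrinolysis genes, 5 read higher on every 54 h array, with a median log2 change of 0.82. The 3 chains of fibrinogen, the precursor of fibrin, are adjacent genes in the order Fgg, Fga and Fgb. Fga had 271, 352 and 307 units at 54 h, against 133, 97.0 and 164 units at 46 h (log2 change 1.16 ± 0.18 SE, limma adjusted p = 0.0587). It passed the filter only through its 54 h arrays. Fgb had 92.8, 136 and 113 units at 54 h, against 43.5, 36.3 and 37.3 units at 46 h, a log2 change of 1.23 on a dim probe set that was not tested. Fgg had 164, 239 and 204 units at 54 h, against 108, 80.5 and 93.9 units at 46 h, a log2 change of 0.98, also not tested. In all 3 chains 54h replicate B was the highest array and 46h replicate B the lowest.

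F2, prothrombin, had 309, 363 and 320 units at 54 h, against 257, 256 and 213 units at 46 h (log2 change 0.43 ± 0.12 SE, limma adjusted p = 0.296). Vtn, vitronectin, an adhesive protein of plasma and matrix, had 210, 253 and 212 units at 54 h, against 171, 109 and 136 units at 46 h (log2 change 0.66 ± 0.17 SE, limma adjusted p = 0.224). Plg, plasminogen, the precursor of the fibrin-cleaving protease, had 156, 166 and 173 units at 54 h, against 181, 141 and 164 units at 46 h. Its log2 change was 0.03 with a 95% interval of -0.27 to 0.32, and with 1 array omitted it lay between -0.06 and 0.11. This probe set lay below the 95th percentile of the receptor probe sets, so a difference in the transcript may not be visible in it. The probe sets of the 5 genes of this group that read higher also lay below that percentile.

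Of the 6 enzymes of amino acid and urea metabolism, 2 read higher on every 54 h array and 4 overlapped, with a median log2 change of 0.22. Bhmt, which remethylates homocysteine from betaine, had 547, 678 and 577 units at 54 h, against 375, 270 and 416 units at 46 h (log2 change 0.75 ± 0.16 SE, limma adjusted p = 0.145). Hpd, of tyrosine breakdown, had 265, 315 and 257 units at 54 h, against 235, 162 and 209 units at 46 h (log2 change 0.44 ± 0.15 SE, limma adjusted p = 0.370). Neither overlapped between times. Cps1, the entry enzyme of the urea cycle, had 144, 212 and 185 units at 54 h, against 160, 137 and 131 units at 46 h, and overlapped. Ass1 and Arg1, of the same cycle, and Tat, a tyrosine aminotransferase that glucocorticoids induce in liver, also overlapped, with log2 changes of 0.15, 0.01 and -0.11. Tat read 122, 172 and 132 units at 54 h and 171, 135 and 152 units at 46 h. The 95% interval was -0.46 to 0.25 for Tat and -0.14 to 0.44 for Ass1.

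For 6 genes, several probe sets could be compared, and those past the filter had like changes. The 4 Apoa1 probe sets had log2 changes of 1.21 to 1.38 and pairwise correlations of 0.99 over the 6 arrays, and the 4 for Ttr had changes of 1.11 to 1.46 and correlations of 0.986 to 0.998. The 2 Serpina1b probe sets had a correlation of 0.99. By contrast, the brighter Apoh, Apob and Vtn probe sets had log2 changes of 0.79, 0.56 and 0.66, while the dimmer ones had -0.27, 0.06 and 0.03 at means of 109, 85.3 and 134 units, all 3 under the filter. These correlations are descriptions over 6 arrays that the probe sets share.

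**Figure D4:**
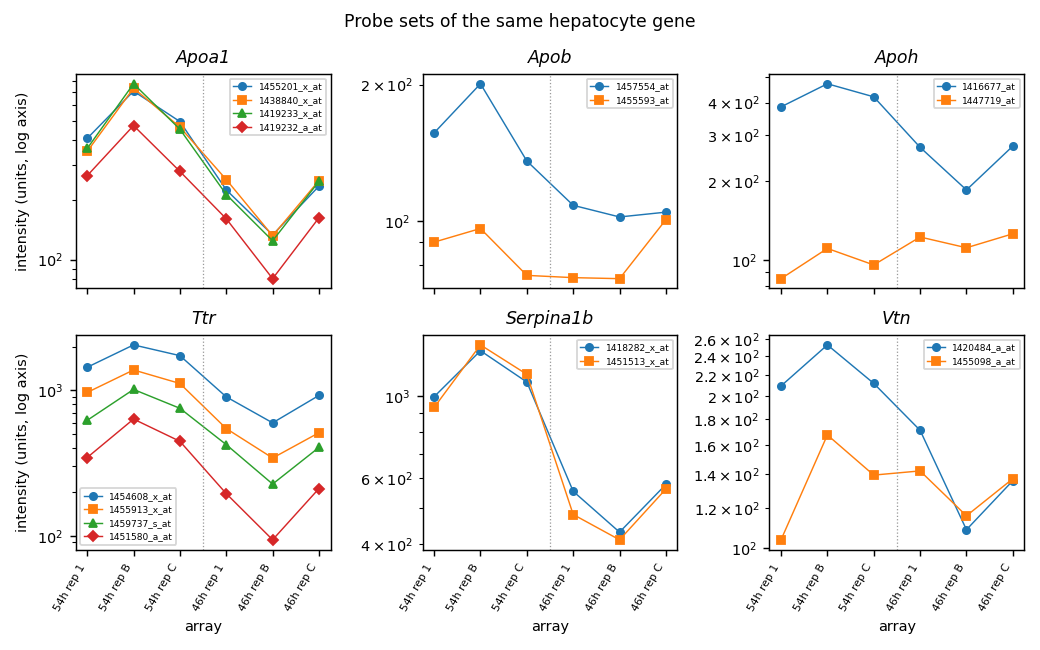
Intensity in units (log axis) of each probe set on the 6 arrays, 54 h on the left and 46 h on the right, for the 6 hepatocyte genes with several single-gene probe sets; lines join the values of 1 probe set to guide the eye. The probe sets of Apoa1, Ttr and Serpina1b run in parallel, and the dimmer ones of Apob, Apoh and Vtn differ less between the times or in the other direction.

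The members also shared an order of arrays within each time. For 19 of 31 members 54h replicate B was the highest 54 h array and 46h replicate B the lowest 46 h array, an order found in 20.8% of all genes. Taken singly, the first held for 23 members (39.9% of all genes) and the second for 22 (41.4%). It was not particular to hepatocyte genes, since 9 of 10 adrenal cortex markers had it too. It held for 17 of the 20 members whose times did not overlap upwards; the exceptions were Rbp4, Itih3 and F2. With the time means removed, the log2 values of 12 of the 30 members other than Alb had a correlation above 0.9 with Alb over the 6 arrays, against 2.83% of all other genes. Without removing them the counts were 16 of 30 and 0.997%. Within times the correlation with Alb was 0.98 for Serpinc1, 0.97 for Apoa2 and 0.97 for Ttr, and it was -0.70 for Rbp4, -0.59 for Itih1, -0.56 for Apoc1 and 0.14 for Hp. This order of arrays was singled out after the values were seen. With both arrays lettered B left out, the median log2 change of the 31 members was 0.40, and 26 of them had a positive change. With all 6 arrays 28 of them did, as did 44.7% of all genes. Limma called 130 probe sets without the B arrays, 5 of them of members. With all arrays it called 31, of which 3 were of members. Without the B arrays the log2 change was 0.61 for Alb, 0.35 for Apoa2, 0.16 for Hpx and 0.06 for Ahsg.

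Hepatocyte genes beyond the members, in 5 lists, were mixed. Of 129 listed, 112 were measured and had a median log2 change of 0.07. All 54 h arrays lay above all 46 h arrays for 19 of them and below for 4. The same held for 6.43% and 8.96% of all genes. Of the 112, 61 were past the filter and tested, and 1 passed limma. That gene was Cyp3a11, a drug-metabolising P450 enzyme, with 653, 693 and 659 units at 54 h, against 364, 223 and 308 units at 46 h (log2 change 1.15 ± 0.16 SE, limma adjusted p = 0.0424). P450 enzymes stood highest, with a median log2 change of 0.49 over 14 measured and all 54 h arrays above all 46 h arrays for 9. The median was 0.09 for 42 other secreted proteins, 0.02 for 34 other enzymes, 0.09 for 10 transporters and -0.07 for 12 transcription factors, and no member of these 4 lists passed. Cyp2e1, named after its values were seen and an abundant liver P450 also made elsewhere, had 9282, 6069 and 7803 units at 54 h, against 9852, 8280 and 9601 units at 46 h, so that replicate B was the lowest array at both times. Foxa1, a transcription factor, was listed at 0 on 46h replicate B, and no measured gene of any list was at 0 on all arrays.

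**Figure D5:**
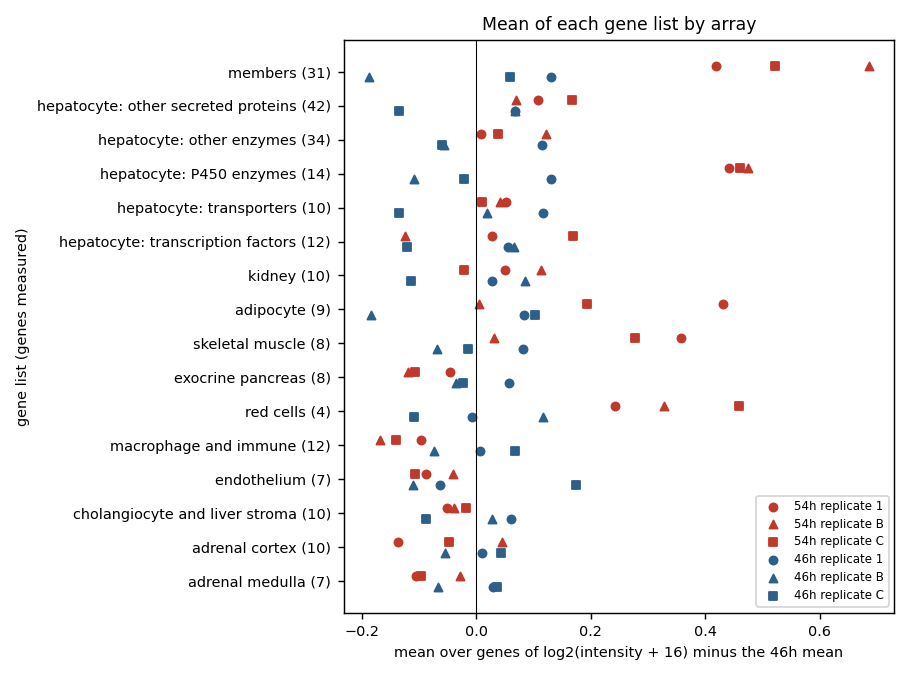
Mean over the measured genes of each list of log2(intensity + 16) minus its 46 h mean, for each of the 6 arrays, with 54 h in red and 46 h in blue. The members lie at 0.42, 0.69 and 0.52 on 54h replicates 1, B and C, against 0.13, -0.19 and 0.06 on 46h replicates 1, B and C, while the adrenal cortex list lies at -0.14, 0.04 and -0.05 on the 54 h arrays, against 0.01, -0.05 and 0.04 on the 46 h arrays.

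Of the markers of the gland itself, none passed limma and none lacked overlap between times. The 10 adrenal cortex markers measured had a median log2 change of -0.05 and the 7 medulla markers -0.08. Several cortex probe sets lay at the top of the intensity scale, where differences may be compressed: Fdx1 on 54h replicate B had the highest value of the table, 17879 units. The summed level of the cortex markers was 126768 to 139874 units at 54 h and 133523 to 141313 units at 46 h. That of the 31 hepatocyte members was 20662 to 22841 units at 54 h and 12268 to 16041 units at 46 h. These sums are over different probe sets and are compared between times, not with each other. Markers of bile ducts, stellate cells and liver macrophages, 10 measured with 4 past the filter, had a median log2 change of -0.04 and a summed level of 2625 to 2827 units at 54 h and 2566 to 3265 units at 46 h. Epcam alone read 1144 to 1777 units, and only 2 of the 10 lay above the 95th percentile of the receptor probe sets, so this sum says little about the others. Without overlap, Colec11 read lower (log2 change -0.37, limma adjusted p = 0.312) and Krt19 higher (0.20, not tested). Other neighbours and blood had medians of 0.04 (kidney, 10 measured), 0.10 (skeletal muscle, 8), -0.05 (exocrine pancreas, 8), -0.07 (endothelium, 7) and 0.31 (red cells, 4). In exocrine pancreas 2 of 8 genes read lower without overlap, Cela1 (log2 change -0.32, limma adjusted p = 0.0965) and Cela2a (-0.24). The summed pancreas level was 6892 to 7234 units at 54 h and 7799 to 8514 units at 46 h. In endothelium 1 of 7 genes read lower without overlap, Kdr (log2 change -0.23, limma adjusted p = 0.204). In kidney 1 of 10 genes read higher without overlap and 1 lower. Among 4 red cell genes 1 passed limma: Hbb-b2, a beta globin, had 765, 809 and 851 units at 54 h, against 323, 427 and 408 units at 46 h (log2 change 1.04 ± 0.12 SE, limma adjusted p = 0.0288), an adjusted p below that of any member. Alas2, of haem synthesis in red cell precursors, also read higher without overlap (log2 change 0.54, limma adjusted p = 0.335). Hba-a1, an alpha globin, and Slc4a1 overlapped between times, with log2 changes of -0.30 and 0.09. The summed red cell level was 2020 to 2457 units at 54 h and 1497 to 1942 units at 46 h. In skeletal muscle 2 of 8 genes read higher without overlap, Eno3 (log2 change 0.50, limma adjusted p = 0.0951) and Myl1 (0.40, limma adjusted p = 0.333). The other muscle genes overlapped, with log2 changes of -0.10 (Tnnt3) to 0.87 (Acta1). The summed muscle level was 2005 to 2312 units at 54 h and 1557 to 1654 units at 46 h. Of the 9 adipocyte genes 3 read higher without overlap, Cidea, Lep and Ucp1, with log2 changes of 0.67, 0.59 and 0.56. The other adipocyte genes overlapped, with log2 changes of -0.11 (Adipoq) to 0.21 (Pparg), and the list median was 0.10. The part of any of these lists in the hepatocyte values was not tested.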

How the data were processed

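Total RNA from whole adrenal glands was hybridised to 6 arrays. The values are the authors' deposited linear intensity for each probe set in the series table; how it was summarised and normalised, and its genome build, are not given in the sources used here. Array medians were 204 to 217 units. Of 45001 probe sets, 64 controls, 1 without a value and 1 damaged row were removed. Genes were taken from the platform's annotation: 34848 probe sets named 1 gene, 928 several and 9159 none. Values were analysed as log2(intensity + 16), and a gene was read from its brightest probe set.

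Probe sets with a mean log2 value above the 40th percentile (26961) were fitted in limma 3.58.1 (R 4.3.3), 54 h minus 46 h, with an intensity trend and Benjamini-Hochberg adjustment over all of them at 0.05. The script was tested on simulated data. An exact permutation test of 3 arrays against 3 cannot go below p = 0.1. The number of arrays limits the precision. Members, lists and tests were chosen with earlier results of these data known. All members were described. Genes of other lists were named for their values, and most of those named did not pass the test. Alternatives covered normalization, filter, offset, variance, a replicate block and left-out arrays. The 4 members without a single-gene probe set were not analysed here.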

Additional observations from a re-analysis of the deposited data

How the results depend on the processing

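The median log2 change of the hepatocyte genes stayed positive under all alternatives run, with 0.56 over all 31 measured. Over these 31 it was 0.40 without both arrays lettered B, 0.42 to 0.62 with 1 array left out and 0.44 with all probe sets of a gene averaged. Over fewer genes it was 0.46 for the 25 tested and 0.70 for the 14 above the 60th percentile, which are other sets of genes. The number of probe sets called was less stable. Over all probe sets it was 31, against 47 with quantile normalization, 48 with the filter at the 60th percentile, 61 with a robust fit, 3 without an intensity trend and 2 to 65 when 1 array was left out. Of hepatocyte probe sets 3 were called, against 5 after centring on array medians, 0 without an intensity trend and 0 to 5 when 1 array was left out. Without both arrays lettered B, an alternative added after seeing the data as was the median over tested genes, 130 probe sets were called, 5 of them hepatocyte ones. The causes were not tested. Calls of single hepatocyte genes came and went. The log2 changes of Hp (-0.07 to 0.28) and Plg (-0.06 to 0.11) took either sign when 1 array was left out. Serpina1b lost its call without an intensity trend (limma adjusted p = 0.132). After centring on array medians, Fga and the brightest Ttr probe set gained one (limma adjusted p = 0.0445 and 0.0456). Of these, Fga had passed the filter only through its 54 h arrays. Arrays with the same letter had correlations of deviations from the mean of their time of -0.06, -0.41 and -0.49 across times. Such deviations cancel out within each time, so these values cannot decide whether the letters pair arrays. With the letter as a replicate block, 45 probe sets were called, 3 of them hepatocyte ones, and the median stayed 0.56. Most members lay within the range of receptor probe sets, which limits what their differences show.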
